A study of Mus musculus with 6 samples.

Results

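The uncoupling proteins Ucp1, Ucp2 and Ucp3 were followed in inguinal white fat, which lies under the skin, of C57BL/6 mice aged 8 weeks that had been exposed to cold. The members are the 3 rows with these symbols among 17342 named genes in the expression tables. Libraries of Rarres2-/- mice (replicates 4, 5 and 6), whose chemerin gene is disrupted, were set against libraries of WT mice (replicates 1, 2 and 3), so each genotype had n = 3. Chemerin is secreted by adipocytes. Both genotypes were cold-stimulated and fat kept warm is not analysed here. The disrupted allele is not described in the labels, nor are the cold protocol and the sex of the mice. They do not say whether each library came from its own mouse, and p-values then measure only the spread between these libraries.

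Uncoupling proteins are carriers of the SLC25 family in the inner mitochondrial membrane. Ucp1 lets protons return to the matrix without making ATP, which releases heat in brown and beige adipocytes; fatty acids activate it and purine nucleotides inhibit it. Ucp2 is expressed widely, including in macrophages and lymphocytes, and has been linked to metabolite export and to limiting reactive oxygen species. Ucp3 is found mainly in skeletal muscle and brown fat, and its transcript is known to increase when fatty acid supply increases. White inguinal fat gains Ucp1-expressing beige adipocytes in the cold, which is why the comparison with chemerin-deficient mice bears on these genes.

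In GRCm38 coordinates from RefSeq, Ucp1 lies at chr8:83290348-83298456. Ucp3 (chr7:100472991-100486432) and Ucp2 (chr7:100493337-100499629) are neighbours on another chromosome, on the same strand, with 6904 bases between the end of Ucp3 and the start of Ucp2. The 250 bases before the transcript start used in the RefSeq promoter table, which for Ucp2 lies inside the gene span just given, are printed because Ucp3 and Ucp2, though adjacent, differed in how they varied between genotypes. Capitals mark matches on either strand to AGGTCA, a hexamer recognised by nuclear receptors such as PPARs and thyroid hormone receptors, to TGACG, the core of the cAMP response element, and to GGGCGG, the GC box. No capital run belongs to more than 1 of these motifs. All 3 windows (GRCm38.p6) are on the plus strand, at chr8:83290098-83290347 for Ucp1, chr7:100493108-100493357 for Ucp2 and chr7:100472741-100472990 for Ucp3.
Ucp1: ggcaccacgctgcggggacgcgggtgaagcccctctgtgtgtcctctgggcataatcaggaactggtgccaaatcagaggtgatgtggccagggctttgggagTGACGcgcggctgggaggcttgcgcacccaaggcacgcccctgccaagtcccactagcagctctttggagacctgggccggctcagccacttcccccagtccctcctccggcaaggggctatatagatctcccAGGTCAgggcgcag
Ucp2: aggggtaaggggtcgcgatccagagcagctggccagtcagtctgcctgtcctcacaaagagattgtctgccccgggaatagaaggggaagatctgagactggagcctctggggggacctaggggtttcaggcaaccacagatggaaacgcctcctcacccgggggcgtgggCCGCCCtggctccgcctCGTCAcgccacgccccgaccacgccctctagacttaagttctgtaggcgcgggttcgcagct
Ucp3: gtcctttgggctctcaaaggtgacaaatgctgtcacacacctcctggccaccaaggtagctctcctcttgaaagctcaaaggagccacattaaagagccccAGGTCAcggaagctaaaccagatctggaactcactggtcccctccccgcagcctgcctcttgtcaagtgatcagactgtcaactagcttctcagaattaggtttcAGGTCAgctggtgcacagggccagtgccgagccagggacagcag
The Ucp1 window held AGGTCA 14 to 9 bases before the start and TGACG 147 to 143 bases before it. The Ucp3 window held AGGTCA at 2 places, 149 to 144 and 44 to 39 bases before the start, and neither of the other motifs. The Ucp2 window held no AGGTCA, with TGACG on the minus strand 62 to 58 bases before the start and GGGCGG on the minus strand 79 to 74 bases before it. Of 32817 RefSeq windows of this length, 14.0% held AGGTCA, 17.7% TGACG and 32.7% GGGCGG. These matches describe letters and do not show binding.

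Expression was deposited as FPKM, in which fragments are divided by the length of the transcript and by the total of the library. As FPKM are scaled to length, the levels of the 3 genes can be set beside each other. No counts are given, so depth is known only in relative terms. Judged by what a read adds to the lowest values, WT replicate 1 was sequenced to 0.470 times the depth of WT replicate 2 and the other libraries to 0.696 to 1.01 times. The targeted gene Rarres2 was at 0.260, 6.35 and 1.41 FPKM in Rarres2-/- libraries, against 436, 610 and 505 FPKM in WT. That level was 193 times higher in WT by the ratio of means, with an adjusted p of 0.0597 by limma, and it checks the genotype labels. WT replicate 1 and Rarres2-/- replicate 4 stood apart from the rest in endothelial markers. Summed FPKM of 9 endothelial markers were 408 in WT replicate 1 and 229 in Rarres2-/- replicate 4, against 63.7 to 79.5 in the other 4 libraries. In WT replicate 1 the small RNA gene Snord2 alone held 62.1% of the summed FPKM of named genes. In no other library did the top gene hold more than 16.7%. Progenitor and fibroblast markers summed to 1359 FPKM in WT replicate 1 and to 5932 and 4327 FPKM in WT replicates 2 and 3. Their sum in Rarres2-/- was 2375 to 2819 FPKM. The adipocyte gene adiponectin (Adipoq) was at 2118 to 2809 FPKM in Rarres2-/- and 2315 to 2563 FPKM in WT. That level marks fat tissue and does not by itself tell white from brown or beige adipocytes.

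Of the 3 genes, Ucp3 differed most between genotypes. It was at 35.6, 22.0 and 25.0 FPKM in Rarres2-/- libraries, against 14.0, 15.1 and 9.67 FPKM in WT libraries. Every Rarres2-/- library lay above every WT library, and the lowest Rarres2-/- value exceeded the highest WT value by 6.96 FPKM. Means were 27.6 ± 7.11 FPKM in Rarres2-/- and 12.9 ± 2.87 FPKM in WT (SD, n = 3 each), 2.13 times higher in Rarres2-/-. The log2 difference, Rarres2-/- minus WT on the log2(FPKM + 1) scale, was 1.03 (SE 0.239, 95% interval 0.46 to 1.60). Only 44 of 11086 tested genes had a larger positive difference. By limma across all tested genes, the unadjusted p was 0.00375 and the Benjamini-Hochberg adjusted p was 0.939, so Ucp3 did not pass the threshold of 0.05.

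Ucp1, the heat-producing member, was also higher in every Rarres2-/- library than in any WT library, by a smaller margin. Its levels were 61.5, 62.8 and 74.6 FPKM in Rarres2-/-, against 43.1, 46.6 and 56.1 FPKM in WT. The means of 66.3 ± 7.20 FPKM in Rarres2-/- and 48.6 ± 6.73 FPKM in WT (SD, n = 3 each) give a ratio of 1.36. The 95% interval of the log2 difference ran from 0.04 to 0.85 around 0.44. Its unadjusted p by limma was 0.0360 and its adjusted p 0.999.

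Ucp2 did not separate the genotypes. It was at 61.3, 39.2 and 40.8 FPKM in Rarres2-/- libraries, against 41.1, 56.0 and 64.6 FPKM in WT libraries. Each genotype held both low and high libraries: Rarres2-/- replicate 4 lay with WT replicates 2 and 3, and WT replicate 1 lay with Rarres2-/- replicates 5 and 6. Means were 47.1 ± 12.3 FPKM in Rarres2-/- and 53.9 ± 11.9 FPKM in WT (SD, n = 3 each). The log2 difference was -0.20 (SE 0.248), and its 95% interval of -0.79 to 0.39 leaves room for differences in either direction (adjusted p = 0.999 by limma). It was -0.38 without WT replicate 1, -0.40 without Rarres2-/- replicate 4, -0.06 without WT replicate 3, -0.08 without Rarres2-/- replicate 5 and -0.11 without Rarres2-/- replicate 6. With WT replicate 1 and Rarres2-/- replicate 4 both left out it was -0.58 (adjusted p = 0.0697 by limma). In that 4-library fit, chosen after seeing the data, 68 genes (0.613%) passed, and Ucp1 had a log2 difference of 0.41 (adjusted p = 0.158) and Ucp3 of 0.90 (adjusted p = 0.0893).

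**Figure D1:**
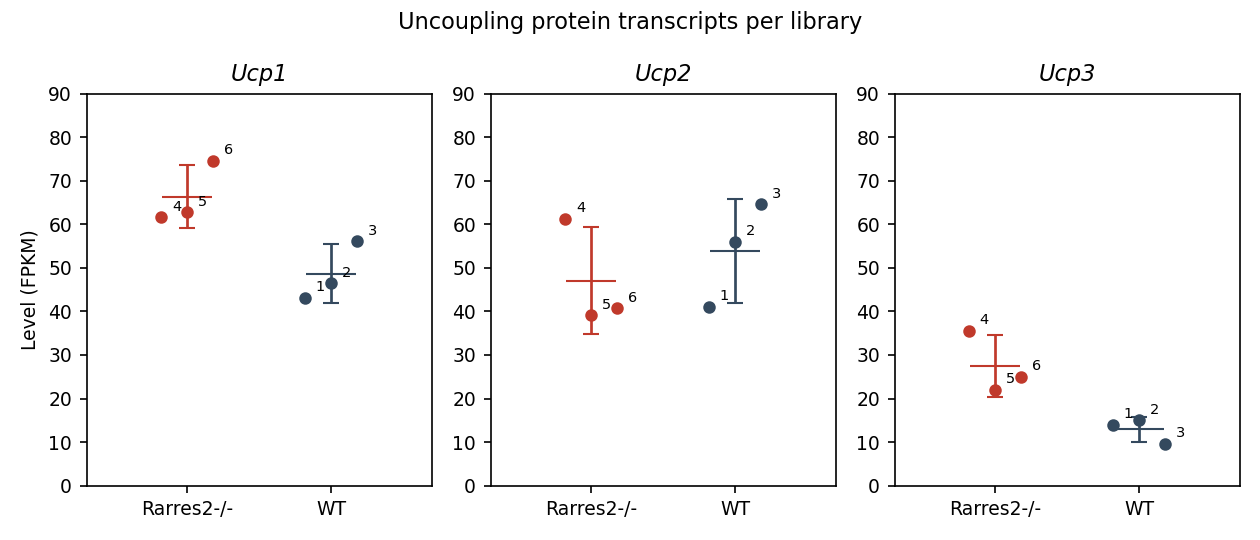
Level of Ucp1, Ucp2 and Ucp3 in FPKM (y axis, from 0) in each Rarres2-/- library (left) and WT library (right), numbered by replicate, with the mean and SD of 3 libraries. The genotypes do not overlap for Ucp1 (61.5 to 74.6 in Rarres2-/- against 43.1 to 56.1 in WT) or Ucp3 (22.0 to 35.6 in Rarres2-/- against 9.67 to 15.1 in WT), and overlap for Ucp2.

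The background of these counts was as follows. By limma, 0 of 11086 tested genes (0%) passed an adjusted p of 0.05 and 436 (3.93%) had an unadjusted p under 0.05. Of those, 244 (2.2% of all tested genes) were higher in Rarres2-/-, and Ucp1 and Ucp3 were among them. Groups did not overlap in 1146 genes (10.3%), with 644 (5.81%) higher and 502 (4.53%) lower in Rarres2-/-; Ucp1 and Ucp3 were among the higher ones. Array weights, which let limma count libraries unequally, called 1524 genes (13.7%), among them Ucp3 (log2 difference 0.81, adjusted p = 0.0284) and Ucp2 (-0.55, adjusted p = 0.0276) but not Ucp1 (0.34, adjusted p = 0.0655). Those weights were 0.179 for Rarres2-/- replicate 4 and 6.19 for replicate 5, so that fit rests mainly on a single Rarres2-/- library.

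**Figure D2:**
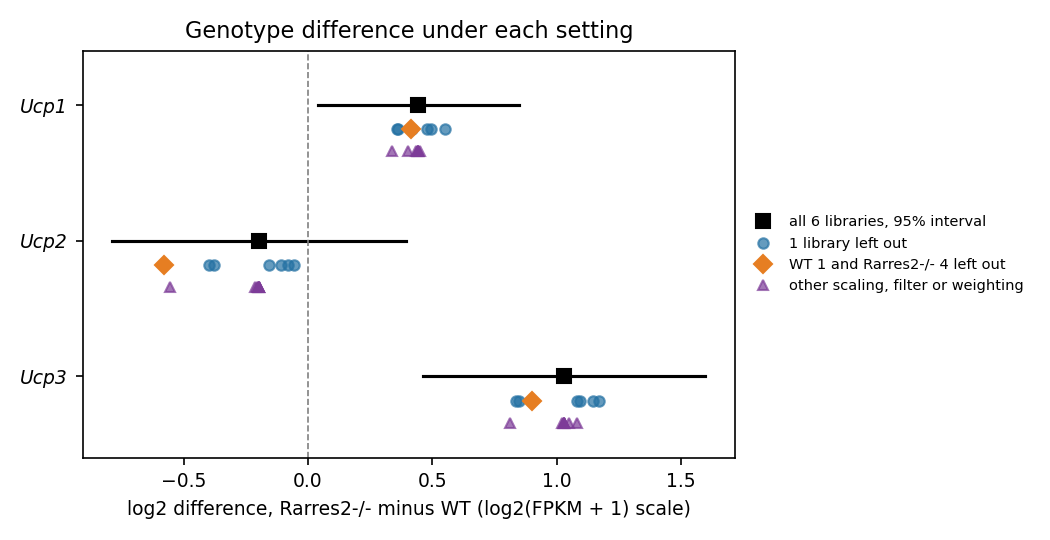
log2 difference of Ucp1, Ucp2 and Ucp3, Rarres2-/- minus WT, with all 6 libraries (squares, bars for the 95% interval) and under each other setting (circles, 1 library left out; diamonds, WT replicate 1 and Rarres2-/- replicate 4 left out; triangles, other scaling, filter, pseudocount, variance prior or weights). Ucp3 stays between 0.81 and 1.17, Ucp1 between 0.34 and 0.55 and Ucp2 between -0.58 and -0.06.

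The order of the 3 transcripts differed between libraries. Ucp1 was the highest and Ucp3 the lowest in all 3 Rarres2-/- libraries, though in replicate 4 Ucp1 and Ucp2 were nearly equal (61.5 and 61.3 FPKM). In WT, Ucp2 exceeded Ucp1 in replicates 2 and 3 and Ucp1 narrowly exceeded Ucp2 in replicate 1 (43.1 and 41.1 FPKM). The ranges of Ucp1 and Ucp2 overlapped in WT and adjoined each other in Rarres2-/-, so they did not differ beyond their spread in WT, whereas Ucp3 lay below both in every library. Of the summed FPKM of the 3 genes, Ucp3 held 22.5%, 17.8% and 17.8% in Rarres2-/-, against 14.3%, 12.8% and 7.42% in WT. The share of Ucp2 was 38.7%, 31.6% and 29.1% in Rarres2-/-, against 41.8%, 47.6% and 49.5% in WT. Neither of these shares overlapped between genotypes, while that of Ucp1 did, at 38.9%, 50.6% and 53.1% in Rarres2-/- against 43.9%, 39.6% and 43.1% in WT. The 3 shares make up a whole, so each depends on the levels of the other genes. The lower share of Ucp2 in Rarres2-/- therefore does not show a lower level of Ucp2, whose FPKM overlapped between genotypes.

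**Figure D3:**
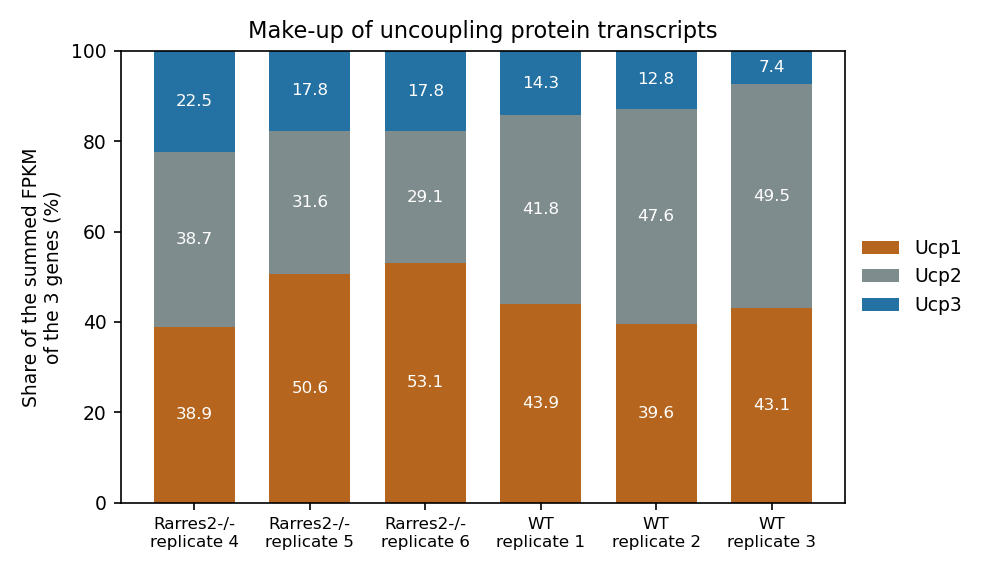
Share of Ucp1, Ucp2 and Ucp3 in their summed FPKM (percent, y axis) in each library, Rarres2-/- on the left and WT on the right. Ucp3 holds 17.8% to 22.5% in Rarres2-/- libraries and 7.42% to 14.3% in WT libraries.

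Ratios within a library do not depend on how libraries were scaled to each other. Ucp3 was at 0.581, 0.563 and 0.614 times the FPKM of Ucp2 in Rarres2-/- libraries, against 0.341, 0.269 and 0.15 times in WT. The Rarres2-/- ratios lay close together and all above the WT ones, with a difference in mean log2 ratio of 1.29 (two-sided exact permutation p = 0.1, which is the smallest possible with n = 3 each; 0.28 adjusted over the 7 ratios compared). Ucp1 exceeded Ucp3 by ratios of 1.73, 2.85 and 2.98 in Rarres2-/-, against 3.08, 3.09 and 5.81 in WT. The groups of this ratio were also separate, by a log2 difference of -0.64 (exact permutation p = 0.1, adjusted 0.28) that shrank to -0.33 if WT replicate 3 was omitted and to -0.39 if Rarres2-/- replicate 4 was. The ratio of Ucp1 to Ucp2 was 1.0, 1.60 and 1.83 in Rarres2-/-, against 1.05, 0.831 and 0.869 in WT, and overlapped (exact permutation p = 0.2, adjusted 0.28). With 3 libraries each, none of these tests could reach 0.05. Ucp2 and Ucp3 transcripts in GENCODE M21 share no run longer than 24 bases, Ucp1 and either of the others none longer than 17. No stretch of 50 bases of Ucp1 or Ucp3 occurs in a transcript of another gene, whereas 3.53% of those of Ucp2 occur in transcripts of its neighbour Dnajb13, which was at 0.805 FPKM in Rarres2-/- and 0.875 FPKM in WT on average.

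Of the genes next to them, C2cd3, which ends 2831 bases before Ucp3, averaged 2.51 FPKM in Rarres2-/- and 2.23 FPKM in WT, with overlapping libraries and a log2 difference of 0.11. Next to Ucp1, Elmod2 averaged 9.77 FPKM in Rarres2-/- and 8.30 FPKM in WT (log2 difference 0.23), and Tbc1d9 averaged 0.941 FPKM in Rarres2-/- and 1.39 FPKM in WT (log2 difference -0.32), both with overlapping libraries.

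Cell type markers were set beside each gene because whole tissue was sequenced, and in whole tissue fewer cells of a type and less RNA per cell cannot be told apart. Ucp3 was compared with 14 skeletal muscle genes. Their summed FPKM was 646, 788 and 482 in Rarres2-/- libraries, against 2077, 316 and 414 in WT. WT replicate 1, the library with by far the highest muscle sum, had Ucp3 at 14.0 FPKM, within the range of the other WT libraries. Ckm, the muscle creatine kinase, was at 75.8, 77.8 and 44.4 FPKM in Rarres2-/-, against 263, 20.9 and 41.7 FPKM in WT, and like the sum it was highest in WT replicate 1 and lowest in WT replicate 2. Without WT replicate 1, 13 of 13 tested muscle markers were higher in Rarres2-/-, with a median log2 difference of 0.87, and with it 6 of 13 were, with a median of -0.12. Myh1, a fast myosin heavy chain, was at 2.91, 4.01 and 1.26 FPKM in Rarres2-/-, against 0.158, 0.241 and 0.148 FPKM in WT. Myoglobin (Mb), the oxygen store of oxidative muscle, was at 11.8, 22.1 and 2.71 FPKM in Rarres2-/-, against 0.513, 3.33 and 0.886 FPKM in WT. Unlike the sum, neither Myh1 nor Mb was highest in WT replicate 1. Myh1 separated the genotypes and Mb did not, and among Rarres2-/- libraries replicate 5 was highest in both of these while replicate 4 was highest in Ucp3. The ratio of Ucp3 to the summed muscle markers differed by 1.14 on the log2 scale, with overlapping libraries (exact permutation p = 0.2, two-sided, n = 3 each, adjusted 0.28). This difference was 0.37 if WT replicate 1 was omitted and 1.78 if WT replicate 2 was. The part of muscle RNA in the Ucp3 difference was not tested beyond these values.

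Ucp2 was set beside 15 macrophage markers, whose sum was 1133, 1241 and 963 FPKM in Rarres2-/-, against 505 FPKM in WT replicate 1 and 2092 and 2097 FPKM in WT replicates 2 and 3. Within WT, both Ucp2 and the macrophage markers were lowest in replicate 1. Lyz2, the lysozyme of macrophages and neutrophils, was at 143 FPKM there and at 723 and 751 FPKM in the other WT libraries. In Rarres2-/-, Ucp2 was highest in replicate 4, where the marker sum was intermediate. Of 14 tested macrophage markers, 0 had a higher mean in Rarres2-/- (median log2 difference -0.24), but 8 did without WT replicate 2 (median 0.08) or without WT replicate 3 (0.05) and 5 did so without Rarres2-/- replicate 6 (-0.05). Without WT replicate 1 the median was -0.88. The ratio of Ucp2 to the macrophage sum differed by 0.04 on the log2 scale (exact permutation p = 0.9, two-sided, n = 3 each), and by -0.27 to 0.54 with 1 library left out. Lymphocyte markers were low. Their sum was 11.3 to 27.7 FPKM in Rarres2-/- and 6.65 to 59.9 FPKM in WT, highest in WT replicate 3, where Ucp2 was also highest. The other libraries did not follow that order. The sum was lowest in WT replicate 2, where Ucp2 was at 56.0 FPKM. Among Rarres2-/- libraries it was highest in replicate 6, where Ucp2 was at 40.8 FPKM.

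Ucp1 was set beside 12 white adipocyte markers, which summed to 44035, 79650 and 82834 FPKM in Rarres2-/-, against 80493, 63670 and 68982 FPKM in WT. The sum was lowest in Rarres2-/- replicate 4, where Ucp1 was near the other Rarres2-/- libraries. The log2 ratio of Ucp1 to this sum was higher by 0.55 in Rarres2-/-, with overlapping libraries (exact permutation p = 0.2, two-sided, n = 3 each, adjusted 0.28). Against 24 respiratory chain and mitochondrial genes the log2 ratio was higher by 0.44 (exact permutation p = 0.4, adjusted 0.467). Without Rarres2-/- replicate 4 the log2 ratio of Ucp1 was higher by 0.30 against white adipocyte markers and by 0.12 against respiratory chain genes, and without WT replicate 1 by 0.24 against respiratory chain genes. Zic1, a transcription factor gene that marks the classical brown fat lineage, was at no more than 0.104 FPKM in any library. Of 4 tested of 8 classical brown fat markers, 2 had higher means in Rarres2-/-, Lhx8 and Pdk4, and 2 lower, Ebf3 and Epsti1 (log2 differences -0.01 and -0.15). Lhx8, a brown fat transcription factor gene, was at 1.98, 2.62 and 2.22 FPKM in Rarres2-/-, against 1.17, 1.84 and 1.25 FPKM in WT.

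**Figure D4:**
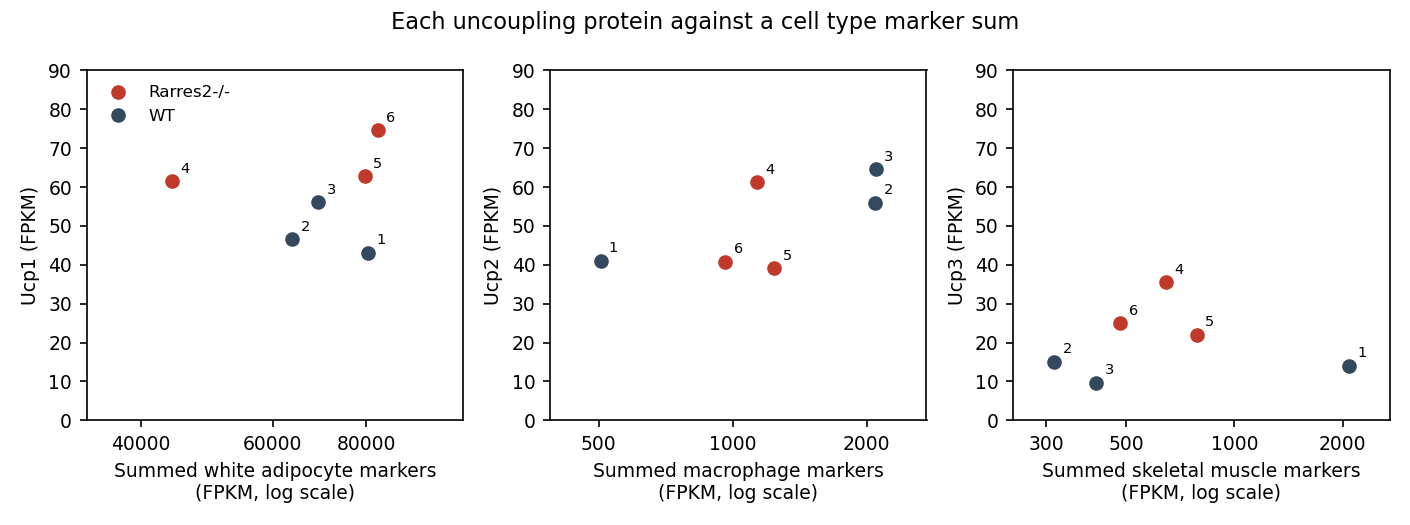
FPKM of Ucp1, Ucp2 and Ucp3 (y axes) against the summed FPKM of white adipocyte, macrophage and skeletal muscle markers (x axes, log scale) in each library, numbered by replicate. WT replicate 1 has the highest muscle sum (2077) with Ucp3 at 14.0, and the lowest macrophage sum (505) with Ucp2 at 41.1.

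The signal that raises Ucp1 in the cold runs from noradrenaline through beta-adrenergic receptors, cAMP and protein kinase A. Of 19 genes of this input, all tested, 14 had higher means in Rarres2-/-, against 48.6% of all tested genes, with a median log2 difference of 0.26 against -0.01. Groups did not overlap in 7, all higher in Rarres2-/-, against 5.81% of all tested genes separate in that direction, and 0 passed the limma test. The 19 include genes that limit the signal, such as the cAMP-degrading Pde3b and Pde4b and regulatory subunits of protein kinase A. These counts therefore give no direction of signalling. Prkar2b, the main regulatory subunit of protein kinase A in fat, was at 394, 470 and 424 FPKM in Rarres2-/-, against 208, 297 and 287 FPKM in WT (log2 difference 0.71). The adenylyl cyclase gene Adcy3 was at 10.7, 7.92 and 6.27 FPKM in Rarres2-/-, against 2.60, 5.53 and 5.94 FPKM in WT (log2 difference 0.74). It was highest in Rarres2-/- replicate 4 and lowest in WT replicate 1, which stood apart in endothelial markers. Its relative Adcy6 had a log2 difference of 0.40. Dio2, which makes active thyroid hormone inside the cell, was at 4.60, 2.08 and 2.88 FPKM in Rarres2-/-, against 1.72, 1.79 and 1.90 FPKM in WT (log2 difference 0.54). The beta3-adrenergic receptor gene Adrb3 was at 103, 47.9 and 110 FPKM in Rarres2-/-, against 127, 64.7 and 88.6 FPKM in WT, and overlapped.

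Transcription factors that drive Ucp1 had mixed values. Of 16 tested of 17 listed, 10 had higher means in Rarres2-/- (median log2 difference 0.09, but 0.04 without WT replicate 3 and 0.13 without WT replicate 1) and 0 passed the test. Cebpb, a C/EBP factor of brown and beige fat cell formation, was at 233, 191 and 317 FPKM in Rarres2-/-, against 151, 117 and 134 FPKM in WT (log2 difference 0.86). Irf4, a cold-induced partner of PGC-1alpha, was at 15.5, 8.95 and 7.12 FPKM in Rarres2-/-, against 2.33, 6.70 and 6.63 FPKM in WT (log2 difference 0.92). Much of that difference comes from Rarres2-/- replicate 4 and WT replicate 1, which stood apart in endothelial markers, and the other libraries lay close together. Rxrg, a retinoid X receptor, had a log2 difference of 0.29. Groups were separate in these 3 genes, all higher in Rarres2-/-, against 5.81% of all tested genes separate in that direction. The coactivator PGC-1alpha (Ppargc1a) was at 5.21, 3.13 and 3.37 FPKM in Rarres2-/-, against 4.61, 2.47 and 1.99 FPKM in WT, and Prdm16 at 3.91, 0.827 and 1.29 FPKM in Rarres2-/-, against 1.98, 1.03 and 0.577 FPKM in WT, both with overlapping libraries. Ppargc1b, the related coactivator, had a log2 difference of -0.52.

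Among 8 genes that restrain Ucp1, 4 had higher means in Rarres2-/- and 0 passed the test. Groups were separate in 5 of the 8, 4 higher and 1 lower in Rarres2-/-, against 5.81% and 4.53% of all tested genes. The corepressor gene Nrip1 (RIP140) was at 15.3, 6.79 and 7.33 FPKM in Rarres2-/-, against 5.50, 3.58 and 4.52 FPKM in WT (log2 difference 0.89). Tle3, a corepressor that favours white over brown fat genes, was at 40.9, 17.0 and 22.4 FPKM in Rarres2-/-, against 14.0, 13.9 and 12.8 FPKM in WT (log2 difference 0.84). The retinoblastoma gene Rb1 had a log2 difference of 0.34. Twist1, a negative regulator of PGC-1alpha, was at 26.6, 29.5 and 31.4 FPKM in Rarres2-/-, against 39.9, 38.8 and 37.3 FPKM in WT (log2 difference -0.40).

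Fatty acids activate Ucp1, and the Ucp3 transcript is known to increase when their supply increases. All 18 listed genes that respond to fatty acids or PPARs or oxidise fatty acids were tested. All had higher means in Rarres2-/-, against 48.6% of all tested genes. Their median log2 difference was 0.26, and 0 passed the test. With 1 library left out, 16 to 18 of them were higher. Groups were separate in 4, all higher in Rarres2-/-, against 5.81% of all tested genes. Pdk4, a kinase that shuts off pyruvate dehydrogenase and favours fatty acid use, was at 216, 68.9 and 97.5 FPKM in Rarres2-/-, against 22.4, 17.0 and 59.1 FPKM in WT (log2 difference 1.96). Like Ucp3 it was highest in Rarres2-/- replicate 4, but the lowest value of Ucp3 was in WT replicate 3, where Pdk4 was the highest of the WT libraries. The fatty acid transporter gene Cd36 was at 963, 1262 and 1052 FPKM in Rarres2-/-, against 663, 832 and 785 FPKM in WT (log2 difference 0.52). Acot2, a mitochondrial acyl-CoA thioesterase, had a log2 difference of 0.53 with overlapping libraries. Angptl4, an inhibitor of lipoprotein lipase and a PPAR target, was at 292, 108 and 193 FPKM in Rarres2-/-, against 95, 36.9 and 138 FPKM in WT, and overlapped (log2 difference 1.21). Whether fatty acid supply has a part in the Ucp3 difference was not tested.

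All 10 listed genes of fatty acid release were tested and had higher means in Rarres2-/-, against 48.6% of all tested genes. Their median log2 difference was 0.29. Groups were separate in 3, all higher in Rarres2-/-, against 5.81% of all tested genes, and 0 passed the test. The list holds lipases but also droplet coat genes and G0s2, an inhibitor of lipolysis, so these counts give no direction of release. The lipid droplet coat genes Plin1 and Plin2 had log2 differences of 0.51 and 0.49 and the hormone-sensitive lipase gene Lipe one of 0.32. Plin5, the coat protein that ties droplets to mitochondria, was at 25.7, 13.7 and 17.5 FPKM in Rarres2-/-, against 17.3, 11.7 and 8.81 FPKM in WT. Counts were 8 to 10 with 1 library left out, and the median was 0.12 without Rarres2-/- replicate 6.

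Genes that accompany Ucp1 in beige and brown adipocytes mostly overlapped between genotypes. Of 13 tested of 16 listed, 7 had higher means in Rarres2-/- (median log2 difference 0.07), and 0 passed. The median was -0.06 without WT replicate 2, -0.07 without WT replicate 3, -0.01 without Rarres2-/- replicate 5 and -0.06 without Rarres2-/- replicate 6, and 11 were higher, with a median of 0.26, without WT replicate 1 and Rarres2-/- replicate 4. Cidea, a lipid droplet protein of brown fat, was at 184, 140 and 171 FPKM in Rarres2-/-, against 226, 148 and 140 FPKM in WT. The cytochrome oxidase subunit gene Cox7a1 was at 60.9, 198 and 346 FPKM in Rarres2-/-, against 266, 168 and 149 FPKM in WT. In Rarres2-/- replicate 4, Cox7a1 was lower than in any other library, while Ucp1 was near its level in replicate 5. Groups were separate for Otop1, a proton channel gene, at 13.8, 7.52 and 11.4 FPKM in Rarres2-/-, against 5.25, 5.88 and 6.49 FPKM in WT (log2 difference 0.76), and for the fatty acid transporter gene Slc27a2 (log2 difference 0.34). No others of the 13 were separate, and 5.81% of all tested genes were separate and higher in Rarres2-/-. The beige markers Tmem26 and Tnfrsf9 were below 1 FPKM in every library.

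Heat can also come from creatine, calcium and glycerol cycles that do not need Ucp1. Of 10 tested of 14 listed genes, 7 had higher means in Rarres2-/- (median log2 difference 0.20) and 0 passed. The median was 0.10 without WT replicate 3 and 0.13 without WT replicate 2 or Rarres2-/- replicate 4. Glycerol kinase, listed under its older symbol Gyk in the tables, was at 7.10, 4.11 and 4.13 FPKM in Rarres2-/-, against 2.95, 2.15 and 3.39 FPKM in WT (log2 difference 0.65). Ckb, a creatine kinase of the futile creatine cycle, was at 28.4, 32.8 and 38.2 FPKM in Rarres2-/-, against 41.7, 41.9 and 43.4 FPKM in WT (log2 difference -0.35). Ckmt2, the muscle-type mitochondrial creatine kinase, was at 4.56, 3.94 and 0.517 FPKM in Rarres2-/-, against 0.733, 0.673 and 0.273 FPKM in WT, and overlapped. Atp2a2, the SERCA2 calcium pump, had a log2 difference of 0.34 with overlapping libraries.

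Other members of the mitochondrial carrier family and the machinery on which uncoupling acts overlapped between genotypes in every tested gene, except for 1 antioxidant gene. Of 9 tested of 11 other carriers, 8 had higher means in Rarres2-/- (median log2 difference 0.17), but 5 without Rarres2-/- replicate 5 (0.02) and 3 without Rarres2-/- replicate 6 (-0.03). Slc25a20, which imports acylcarnitines, was at 77.4, 122 and 117 FPKM in Rarres2-/-, against 75.9, 73.4 and 97.1 FPKM in WT. The adenine nucleotide carrier genes Slc25a4 and Slc25a5, whose products also conduct protons, had log2 differences of 0.08 and 0.19. The close relatives of the uncoupling proteins were much lower, with Slc25a14 at 2.03 to 2.19 FPKM in Rarres2-/- and 2.01 to 2.56 FPKM in WT, Slc25a30 at 1.36 to 6.83 FPKM in Rarres2-/- and 1.44 to 3.27 FPKM in WT, and Slc25a27 at 0.282 to 0.462 FPKM in Rarres2-/- and 0.230 to 1.20 FPKM in WT. Of 24 respiratory chain and mitochondrial genes 17 had higher means in Rarres2-/- (median log2 difference 0.09). That count was 9 without Rarres2-/- replicate 5 (median -0.05), 7 without Rarres2-/- replicate 6 (-0.15) and 24 without Rarres2-/- replicate 4 (0.45). In Sdha, a subunit of complex II, the values were 238, 366 and 389 FPKM in Rarres2-/-, against 209, 301 and 274 FPKM in WT. Of 16 antioxidant genes, often studied together with Ucp2, 10 had higher means in Rarres2-/- (median log2 difference 0.08), but 7 without Rarres2-/- replicate 5 (-0.04) and 6 without Rarres2-/- replicate 6 (-0.11). Groups were separate only for Gpx1, a glutathione peroxidase gene, at 561, 529 and 558 FPKM in Rarres2-/-, against 838, 573 and 613 FPKM in WT. Of all tested genes, 10.3% had separate groups and 4.53% were separate and lower in Rarres2-/-, so 1 such gene does not set this list apart. Over all fits with a library left out, medians ran from -0.03 to 0.38 for the carriers, -0.15 to 0.45 for the respiratory chain and -0.11 to 0.26 for antioxidant genes. No gene of these 3 lists passed the test.

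**Figure D5:**
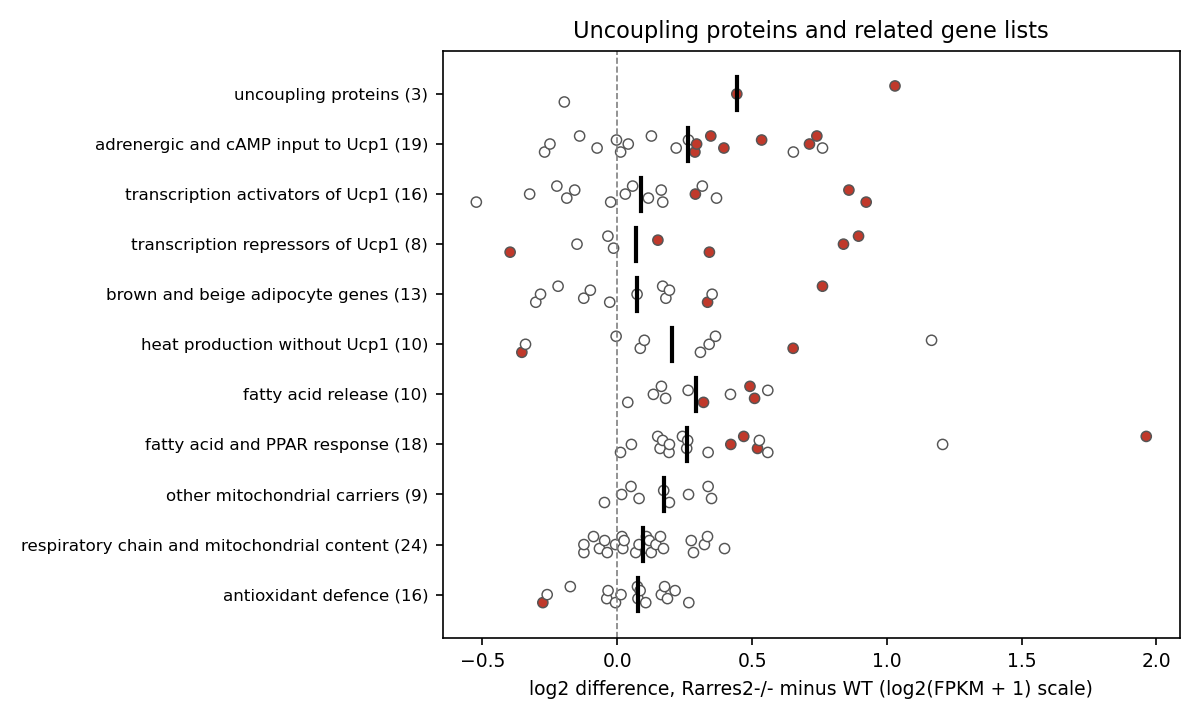
log2 difference, Rarres2-/- minus WT, of each tested gene (points, number per list in brackets) in the uncoupling protein list and in lists of related genes, with the list median as a vertical line; filled points mark genes whose 3 Rarres2-/- libraries all lie on one side of the 3 WT libraries. Ucp3, at 1.03, is passed only by Pdk4 (1.96), Angptl4 (1.21) and Ckmt2 (1.17) among the genes shown.

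The genes most like each uncoupling protein were taken by the root mean square difference between profiles of log2(FPKM + 1), each centred on its own mean over the 6 libraries. Nearest to Ucp3 were Tusc5 (difference 0.101), an adipocyte membrane protein gene now named Trarg1 that acts in glucose transporter trafficking, Slc6a13 (0.146), Klhdc7a (0.152), Slc35e4 (0.202) and Tob2 (0.230). Tusc5 was at 237, 151 and 194 FPKM in Rarres2-/-, against 95.2, 110 and 81.0 FPKM in WT, a log2 difference of 1.0. Slc6a13, a GABA and taurine transporter gene, was at 25.9, 13.2 and 18.4 FPKM in Rarres2-/-, against 8.89, 8.87 and 7.54 FPKM in WT. Both had the highest value in Rarres2-/- replicate 4 and the lowest in WT replicate 3, as Ucp3 did. They were picked for likeness over these same libraries, so this is not separate evidence. Among the nearest to Ucp1 were Nid2 (0.058), H2-T22 (0.072), Pigs (0.090) and Atg12 (0.099). Nid2, a basement membrane protein gene, was at 11.3, 10.9 and 13.3 FPKM in Rarres2-/-, against 7.93, 8.91 and 9.75 FPKM in WT. Among the nearest to Ucp2 were Naalad2 (0.037), Hcls1 (0.067), Sepn1 (0.076) and Ptgs1 (0.077). Hcls1, a gene of blood cells, was at 17.3, 11.2 and 11.4 FPKM in Rarres2-/-, against 12.9, 15.2 and 18.6 FPKM in WT. Differences were 0.42 between Ucp1 and Ucp2, 0.48 between Ucp1 and Ucp3 and 0.70 between Ucp2 and Ucp3. By nearness to Ucp3 among tested genes, leaving out Gm and Rik symbols, Ucp1 ranked 606 and Ucp2 7229. These distances describe 6 libraries that share the genotype contrast.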

How the data were processed

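Total RNA of cold-stimulated inguinal fat was sequenced from 3 Rarres2-/- and 3 WT libraries. Each library has a table of FPKM made by the authors, as the file headers state. Only for WT replicate 3 does the header give a sample name, not a unit; its values were taken as deposited FPKM because their median over tested genes (9.23) lay between those of the others (9.05 to 9.37). Bowtie and mm10 are named in the submitters' processing notes. How FPKM were computed, with which annotation and strand setting, and what was done with shared reads, not given in the sources used here, could shift values of genes with copies. Rows without a symbol (737 per table, 0.793% to 4.91% of summed FPKM) were left out. No pair of libraries held an equal value above 0 in both.

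Of 17342 named genes, the 11086 that averaged 1 FPKM or more entered the test. It used log2(FPKM + 1), which understates changes of low genes, and limma 3.58.1 under R 4.3.3 (trend, two-sided, genotype as the only term, Benjamini-Hochberg over all tested genes, threshold 0.05). Relative depth came from ratios of values below 0.15 FPKM. Ratios within libraries were compared by exact permutation tests with scipy 1.17.1. The design written for counts or FPKM was used in its FPKM form. The members and the 19 lists were chosen with earlier results of these data known; 2 list genes were found by older symbols and 2 were not found. Named genes are the members, Rarres2, up to 4 genes of smallest p per list, markers that define a cell type list and the 5 genes most alike in profile; some genes under this rule are not reported here. Adrb3, Ppargc1a, Ppargc1b, Prdm16, Cidea, Cox7a1, Plin5, Angptl4, Slc25a4, Slc25a5, Slc25a14, Slc25a27, Tmem26, Tnfrsf9, the genes beside the members and genes set off in other sentences were named after their values were seen. Alternatives were other scalings, filters, a pseudocount of 0.1, array weights, other variance priors and leaving out libraries. Promoter windows and coordinates are RefSeq's on GRCm38.p6, the assembly that mm10 stands for, and all 3 members matched by symbol.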

Additional observations from a re-analysis of the deposited data

How the results depend on the processing

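Ucp1 and Ucp3 were higher in Rarres2-/-, and Ucp2 lower, under all 16 alternatives run. With 1 library left out, log2 differences ran from 0.36 to 0.55 for Ucp1, -0.40 to -0.06 for Ucp2 and 0.84 to 1.17 for Ucp3. Array weights brought Ucp3 (0.81, adjusted p = 0.0284 by limma) and Ucp2 (-0.55, adjusted p = 0.0276) past the threshold; over all alternatives adjusted p reached 1 for each of them and its lowest value for Ucp1 was 0.0655. The number of genes called was 0 in the fit reported and 0 to 1 with 1 library left out. It was 1 with upper-quartile scaling, 1 when the 20 most abundant genes were kept out of the scaling, 1 with at least 5 FPKM in 3 libraries, 1524 with array weights and 68 when WT replicate 1 and Rarres2-/- replicate 4 were both left out, which was chosen after seeing the data. Rarres2 passed with those scalings (-7.54 and -7.55), with that filter (-7.51), with array weights (-6.47) and without those 2 libraries (-7.04); with 1 library left out it ran from -8.20 to -6.93, passing without Rarres2-/- replicate 5. The cause of these changes was not tested. The log2 ratio of Ucp2 to macrophage markers ran from -0.27 to 0.54 and changed sign without WT replicate 2, WT replicate 3 or Rarres2-/- replicate 4. The other ratios kept their sign: 0.95 to 1.54 for Ucp3 to Ucp2, -0.79 to -0.33 for Ucp1 to Ucp3, 0.48 to 0.91 for Ucp1 to Ucp2, 0.37 to 1.78 for Ucp3 to muscle, 0.30 to 0.72 for Ucp1 to white adipocyte and 0.12 to 0.61 for Ucp1 to respiratory chain genes. No paired analysis was possible because the genotypes share no replicate numbers. FPKM carries no counts, so counting error cannot be given.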
